A study of Homo sapiens with 2 samples.

Results

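Cancer-testis antigens are proteins that male germ cells make and most other adult tissues do not, and that many tumours make again. The windows described here are those of the X-linked families MAGEA, MAGEB, MAGEC, GAGE, PAGE, XAGE, SSX, CT45A, CT47A and SPANX, chosen by gene symbol alone. They number 87 of the 36814 windows in the deposited table, they fall into 10 families, and all lie on the X chromosome. A symbol had to consist of the family name, at most 1 letter, a number and at most 1 further letter, which leaves out pseudogenes, and the rule uses no measured value. Of the 87 symbols, 86 were found in the RefSeq gene table of GRCh38.p14, all as protein-coding genes, and GAGE2E was not.

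PRO-seq (precision run-on sequencing) reads nascent RNA: polymerases already engaged on DNA add biotinylated nucleotides to their transcripts in permeabilised cells. The cells were K562, an established human line derived from chronic myelogenous leukaemia. The DMSO library came from K562 cells given 0.1% DMSO, a solvent, for 1 h, and the untreated library from untreated K562 cells. Each group had 1 library, so treatment and library cannot be told apart, no value below has a replicate check, no test was possible, and every interval covers counting error only.

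In somatic cells these genes are kept silent mainly by methylation of CpG dinucleotides in their promoters, with help from histone methylation and Polycomb-type complexes. The MAGEA, MAGEB and MAGEC proteins (type I MAGE) bind RING ubiquitin ligases, GAGE, PAGE and XAGE proteins are short acidic proteins of one superfamily, and SSX proteins repress transcription. SPANX proteins are named for the sperm nucleus. Several of the families are arrays of near-identical copies, so reads from one copy can often be placed on another.

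The DMSO library held 4154920 reads and the untreated library 2136291 reads over all windows, and 2249790 DMSO and 525322 untreated reads lay outside the ribosomal and mitochondrial windows. Each window spans 6000 bases, 3000 to either side of an annotated gene start on hg38. Reads in bases that windows share are absent from the counts, whatever the strand. Levels are CPM, counts scaled to a common library total, and 1 CPM was 4.15 reads in the DMSO library and 2.14 reads in the untreated library. Ratios are log2 DMSO/untreated after TMM scaling, given relative to the median of the 6591 windows past a floor of 5 CPM on average and 100 reads, so that 0 stands for the median window. That median was 0.31 under TMM and 1.27 under library totals.

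The cells carried erythroid marks and few germ cell marks. Of 12 erythroid genes, 11 held at least 1 CPM in both libraries, against 34.7% of all windows. TFRC, the transferrin receptor, had 1179 DMSO and 432 untreated reads, and KLF1, the erythroid Krüppel-like factor, had 807 and 234. Of 12 male germ cell genes, 2 held at least 1 CPM in both libraries. These were SYCP3, a protein of the synaptonemal complex, with 244 DMSO and 81 untreated reads, and SPO11, which makes meiotic DNA breaks, with 10 and 5. The germ cell markers DAZL and DDX4 had 1 and 2 DMSO reads and no untreated read. Each list held 2 genes with under 1000 unshared bases. In the germ cell list these were ACR, with 0, and TNP1, with 117, which could hardly be measured and had no read.

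Promoters of 6 members are printed here because their windows run from members past the floor to MAGEB3, a neighbour with few reads. They come from RefSeq, build GRCh38.p14, run 5′ to 3′ over 250 bases before and 50 bases after the gene start, and have every CpG in capitals. MAGEB2 (chrX:30215313-30215612, plus strand) and MAGEB3 (chrX:30230407-30230706, plus strand) are neighbours that differ in reads and in CpG. SSX1 (chrX:48255142-48255441, plus strand) is the most read SSX window. GAGE12D (chrX:49541483-49541782, plus strand) carries the sequence shared by most GAGE copies. MAGEC2 (chrX:142205241-142205540, minus strand) and MAGEA9 (chrX:149781680-149781979, plus strand) represent the MAGEC and MAGEA families.
MAGEB2: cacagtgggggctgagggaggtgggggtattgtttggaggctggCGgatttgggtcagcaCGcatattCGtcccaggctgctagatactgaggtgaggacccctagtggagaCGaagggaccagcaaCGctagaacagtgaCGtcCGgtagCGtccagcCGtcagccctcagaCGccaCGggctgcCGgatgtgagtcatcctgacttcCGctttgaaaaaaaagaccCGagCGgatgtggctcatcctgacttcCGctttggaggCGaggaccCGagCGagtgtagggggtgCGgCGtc
MAGEB3: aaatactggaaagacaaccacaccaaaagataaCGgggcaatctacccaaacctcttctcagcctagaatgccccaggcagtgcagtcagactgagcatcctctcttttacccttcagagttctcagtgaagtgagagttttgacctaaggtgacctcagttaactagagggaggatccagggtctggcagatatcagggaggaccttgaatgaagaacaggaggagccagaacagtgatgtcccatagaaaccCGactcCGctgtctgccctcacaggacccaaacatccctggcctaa
SSX1: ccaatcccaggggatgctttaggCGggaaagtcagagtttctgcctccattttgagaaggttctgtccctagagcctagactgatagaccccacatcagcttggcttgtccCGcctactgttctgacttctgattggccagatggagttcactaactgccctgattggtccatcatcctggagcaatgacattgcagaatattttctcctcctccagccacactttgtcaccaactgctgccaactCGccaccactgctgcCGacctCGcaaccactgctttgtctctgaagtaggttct
GAGE12D: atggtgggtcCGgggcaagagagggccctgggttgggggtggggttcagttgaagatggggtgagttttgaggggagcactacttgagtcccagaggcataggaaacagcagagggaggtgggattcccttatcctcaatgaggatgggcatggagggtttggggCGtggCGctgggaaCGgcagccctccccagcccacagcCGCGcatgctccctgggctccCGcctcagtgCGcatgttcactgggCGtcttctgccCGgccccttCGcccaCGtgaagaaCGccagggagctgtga
MAGEC2: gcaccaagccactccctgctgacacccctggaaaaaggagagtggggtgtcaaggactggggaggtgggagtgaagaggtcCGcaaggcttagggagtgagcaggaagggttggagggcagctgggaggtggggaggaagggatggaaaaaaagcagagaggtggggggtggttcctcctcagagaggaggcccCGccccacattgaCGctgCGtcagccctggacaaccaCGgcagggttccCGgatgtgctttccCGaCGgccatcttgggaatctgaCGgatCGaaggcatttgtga
MAGEA9: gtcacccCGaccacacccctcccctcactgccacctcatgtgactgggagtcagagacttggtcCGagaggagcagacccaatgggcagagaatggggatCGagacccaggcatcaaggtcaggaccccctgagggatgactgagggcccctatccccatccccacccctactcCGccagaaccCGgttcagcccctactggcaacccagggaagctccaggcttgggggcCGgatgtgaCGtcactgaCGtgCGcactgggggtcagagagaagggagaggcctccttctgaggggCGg

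These promoters hold 21 CpG in MAGEB2, 3 in MAGEB3, 5 in SSX1, 13 in GAGE12D, 10 in MAGEC2 and 10 in MAGEA9. A RefSeq promoter was found in the window of 61 members, and the median over those windows was 10 CpG, against 14 over all 35116 promoters of the table. A level of 1 CPM or more in both libraries was held by 20 windows with a known promoter, and their median was 12.5 CpG (range 5 to 21). The other 30 windows that had a known promoter and at least 1000 unshared bases had a median of 7.5 CpG (range 1 to 14). The ranges overlap widely: XAGE3, with 14 CpG, had 2 DMSO reads and no untreated read, while SSX1, with 5, was among the most read. Promoters of copies are not independent of each other, so the medians are descriptions.

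**Figure D1:**
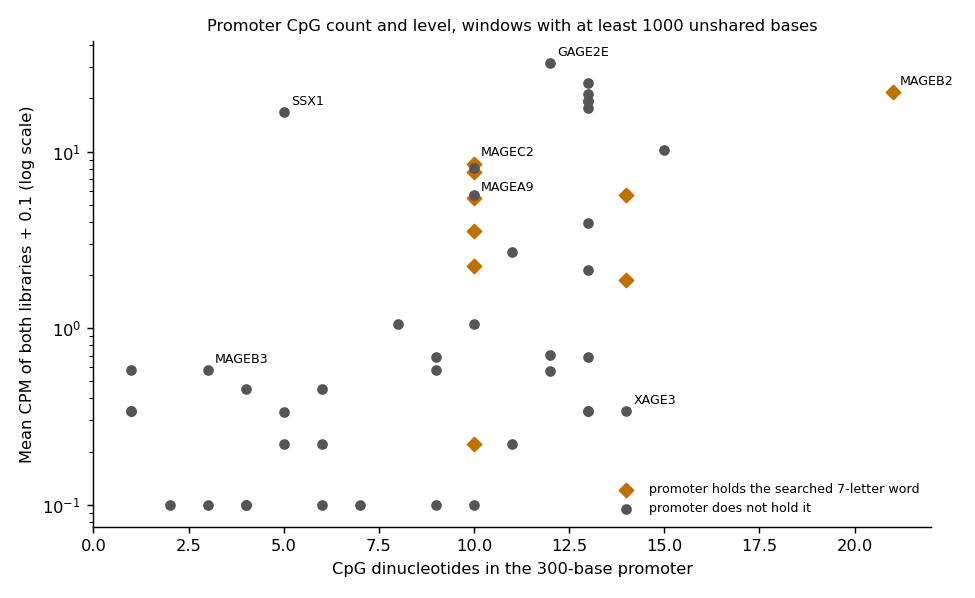
CpG dinucleotides in the 300-base RefSeq promoter (x axis) against the mean CPM of both libraries plus 0.1 (y axis, log scale) for the 50 windows with a known promoter and at least 1000 unshared bases. Diamonds mark promoters that hold the word CGGATGT. MAGEB2 stands at the right with 21 CpG, and SSX1 is read at a high level with 5.

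The word CGGATGT on either strand was looked for after the sequences had been seen. Identical copies were counted once. The word is present in 11 of the 49 distinct member promoter sequences (22.4%), against 1.39% of the 34796 distinct promoter sequences in the table. By family it is in 6 of 7 MAGEA sequences, 2 of 2 MAGEC, 2 of 10 MAGEB and 1 of 6 SSX sequences, and in none of the GAGE, PAGE, XAGE, SPANX or CT45A promoters in the table. Among windows at 1 CPM or more in both libraries it is in 6 of 15 distinct sequences, and among the other windows with at least 1000 unshared bases in 1 of 28, that of MAGEA4. The printed MAGEB2, MAGEC2 and MAGEA9 promoters, seen before the search, are among the 6, so this contrast is no independent support. Promoters of related MAGE genes are not independent of each other either. The word CCGGAA, on either strand, is in 2 of the 49 (4.08%), against 17.2% of the distinct promoter sequences. The 2 words share the letters CGGA, and a match describes letters only.

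The share of members that were read lay close to that of all windows. At least 1 DMSO read was present in 64 of 87 windows (73.6%), against 77.6% of all windows, and at least 1 untreated read in 48 (55.2%), against 50.0% of all windows. In 43 windows both libraries had a read, and in 18 neither had. A further 21 (24.1%) were read with DMSO alone, against 29.5% of all windows, none with more than 5 reads, and 5 were read in untreated cells alone (XAGE5, CT47A9, CT47A7, CT47A6 and MAGEA3). A level of at least 1 CPM in both libraries was reached by 28 members (32.2%), close to 34.7% of all windows and 34.1% of the 1163 X chromosome windows. Past the floor were 8 members (9.2%), against 17.9% of all windows.

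The members together gave 1519 DMSO and 485 untreated reads, which is 0.0675% of the DMSO and 0.0923% of the untreated reads outside ribosomal and mitochondrial windows. Their summed ratio was -0.59 (95% interval -0.74 to -0.44), below the median window, and that of all windows outside ribosomal and mitochondrial ones was -0.14. The 12 erythroid genes summed to -0.68 (-0.77 to -0.58), so a ratio of this size is not particular to the members. The 12 male germ cell genes summed to -0.65, but SYCP3 alone held 244 of their 268 DMSO and 81 of their 89 untreated reads. The 35 autosomal germline genes, SYCP3 among them, summed to -0.09 (-0.31 to 0.14). Fewer transcribing cells and less transcription per cell cannot be told apart in such libraries. Reads were concentrated: the 8 members past the floor held 64.2% of the members' DMSO reads and 47.4% of their untreated reads. GAGE windows alone held 52.7% of the DMSO and 38.4% of the untreated reads.

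**Figure D2:**
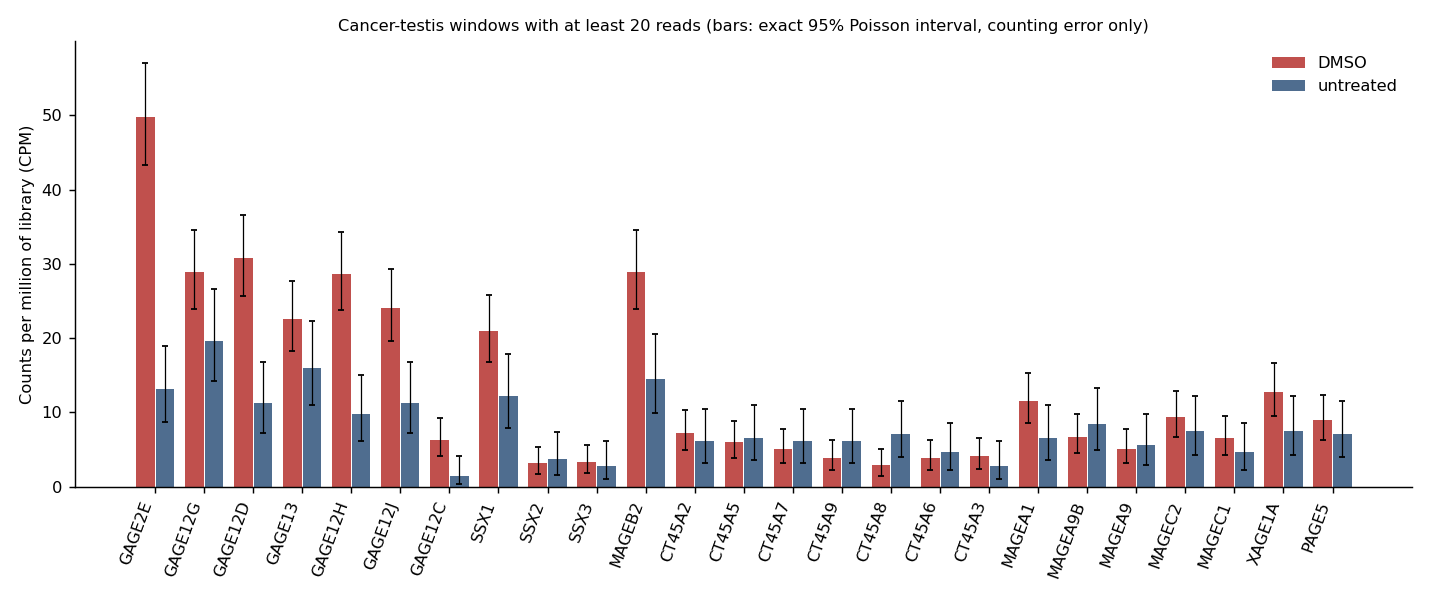
Level in CPM (y axis) of the 25 members with at least 20 reads over both libraries, grouped by family, DMSO beside untreated; bars are exact 95% Poisson intervals, for counting error only. GAGE2E leads with 49.8 CPM in the DMSO library, and 6 GAGE windows, MAGEB2 and SSX1 stand above the rest. CPM are per library total and are not scaled between the libraries.

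None of the 8 members past the floor stood 2-fold or more above the median window, against 7.04% of all windows past the floor, and none stood 2-fold or more below it, against 7.97%. Their median ratio was -0.23 and their range -0.77 to 0.64. At least 10 reads were present in 29 members, the 8 included, and the 95% interval of 13 of these (44.8%) lay wholly below the median window, against 20.3% of the 11409 windows with 10 to 235 reads. GAGE2E was the only one of the 29 (3.45%) whose interval lay wholly above it, against 8.06% of those windows. Of the 29, 24 (82.8%) had a ratio under 0, against 57.3%, and 4 (MAGEB10, GAGE10, CT45A8 and CT45A9) lay below -1.85, the 5th percentile of the 11409 windows, whose median was -0.19. In 3 members (10.3%; MAGEB10, GAGE10 and CT45A8) the DMSO reads did not exceed the untreated ones, against 3.19% of those windows. The 13 with intervals below the median window include CT45A5, CT45A6, CT45A7, CT45A8 and CT45A9. They also include GAGE10, GAGE12G and GAGE13, and MAGEA9 with MAGEA9B. Copies are not independent of each other, so these shares count some arrays several times and are descriptions.

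GAGE, an array on the short arm, was the most read family. Its proteins are short, acidic and, in germ cells and tumours, mostly nuclear. The 13 windows gave 801 DMSO and 186 untreated reads, a ratio of -0.13 (-0.36 to 0.11). GAGE2E (window chrX:49338192-49344191) had 207 DMSO and 28 untreated reads, the most of any member, and a ratio of 0.64 (0.07 to 1.27). It held 13.6% of the members' DMSO reads and 5.77% of their untreated reads. RefSeq places the start of GAGE12B, not of GAGE2E, in this window, so the name of the copy read there is unsure.

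The other GAGE windows past the floor were close in level. GAGE12D had 128 DMSO and 24 untreated reads, GAGE12H 119 and 21, and GAGE12J 100 and 24, with ratios of 0.17, 0.26 and -0.18. GAGE12G had 120 DMSO and 42 untreated reads and a ratio of -0.72 (-1.24 to -0.18), and GAGE13 had 94 and 34 with a ratio of -0.77 (-1.35 to -0.16). GAGE12G and GAGE13 were thus lower with DMSO than the median window and GAGE2E higher, within a single array. The remaining windows held few reads, with 26 DMSO and 3 untreated in GAGE12C, 6 and 8 in GAGE10, 1 and 2 in GAGE12B, and none in GAGE12F, GAGE12E, GAGE1 and GAGE2A.

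Reads cannot be tied firmly to single GAGE copies. The promoters of GAGE12J, GAGE12H and GAGE12D are identical letter for letter, and so are those found in the windows of GAGE12B, GAGE12C, GAGE12F, GAGE12E, GAGE1 and GAGE2A. GAGE13 differs from GAGE12D by the substitution T252C, counted from 1 at the promoter's 5′ end with the GAGE12D base first. GAGE12G is 98.02% identical to it, the promoter in the GAGE2E window 89.6% and GAGE10 88.8%. GAGE10, the least like, had 6 DMSO and 8 untreated reads over a full window. GAGE12F and GAGE12E have 55 unshared bases each, and GAGE1 and GAGE2A 33 each, so that a count of 0 there says nothing about those copies.

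**Figure D3:**
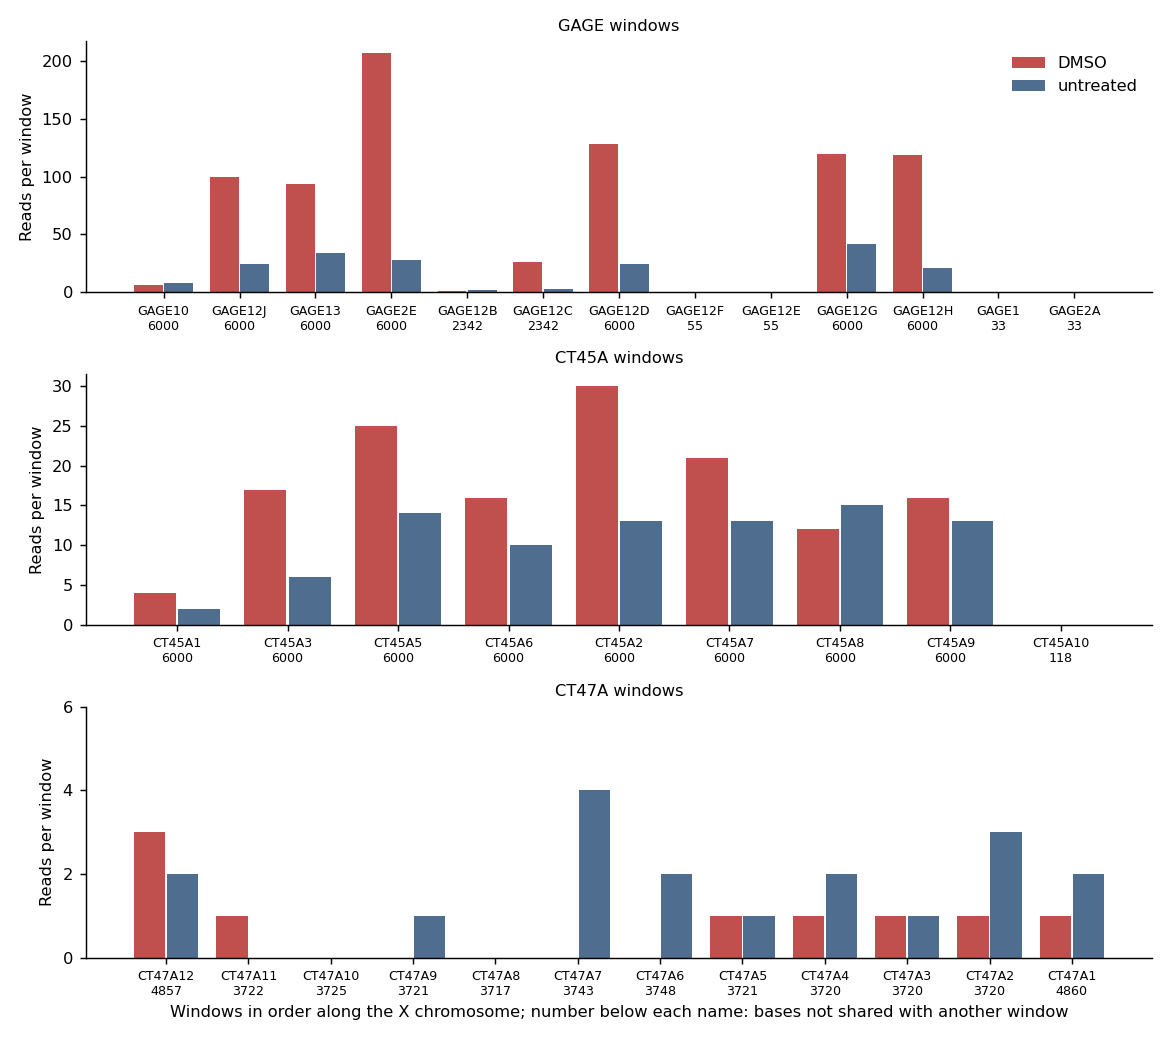
Reads per window (y axes) of the GAGE, CT45A and CT47A arrays in order along the X chromosome, DMSO beside untreated, with the number of unshared bases under each name. GAGE2E reaches 207 DMSO reads, CT45A8 has more untreated than DMSO reads (12 DMSO, 15 untreated), and no CT47A window has more than 4 reads in either library.

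Among the MAGEB genes, a single window carried most of the reads. MAGEB2, which restrains stress granule formation in male germ cells, had 120 DMSO and 31 untreated reads in chrX:30212563-30218562, a ratio of -0.29. MAGEB3, whose start lies 14873 bases after that of MAGEB2, had 4 DMSO reads and no untreated read over a full window. The printed MAGEB2 and MAGEB3 promoters have 21 and 3 CpG. MAGEB10 had 5 reads in each library, a ratio of -2.08. MAGEB1 had 4 DMSO reads and no untreated read, MAGEB16 had 2, MAGEB6 and MAGEB17 had 1 each, and MAGEB5 had 1 read in each library. MAGEB18, MAGEB6B and MAGEB4 had none, MAGEB4 with 1730 unshared bases. The 11 windows summed to 138 DMSO and 37 untreated reads, a ratio of -0.34 (-0.87 to 0.23).

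MAGEA proteins are tumour antigens recognised by T cells, with MAGEA1 and MAGEA3 the best known. MAGEA1 had 48 DMSO and 14 untreated reads, with a ratio of -0.46. MAGEA9B had 28 DMSO and 18 untreated reads, and MAGEA9, which has an identical promoter, had 21 and 12, with ratios of -1.58 and -1.40. The intervals of both lay wholly below the median window. MAGEA11, which coactivates the androgen receptor, had 1 DMSO read and no untreated read over a full window.

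The other MAGEA windows could hardly be measured. The unshared bases numbered 0 in MAGEA10, 16 in MAGEA6, 21 in MAGEA12, 36 in MAGEA2 and MAGEA2B, 66 in MAGEA3 and 70 in MAGEA8, since these windows overlap those of CSAG genes, antisense genes or other neighbours. MAGEA3 had 3 untreated reads and no DMSO read in its 66 bases. MAGEA2B had 2 DMSO reads, MAGEA2 and MAGEA8 had 1 each, MAGEA12 had 1 DMSO and 2 untreated reads, and MAGEA10 and MAGEA6 had none. MAGEA4 had 1460 unshared bases and 1 DMSO read. The 12 MAGEA windows summed to 104 DMSO and 49 untreated reads, a ratio of -1.15 (-1.66 to -0.63). Over the 6 for which no identical copy was found the ratio was -0.54 (-1.37 to 0.37). That value rests mainly on MAGEA1, and MAGEA1 and MAGEA10 had no promoter to compare.

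MAGEC2 and MAGEC1 were read at like levels. MAGEC2, a partner of the ligase TRIM28, had 39 DMSO and 16 untreated reads, a ratio of -0.94, and MAGEC1 had 27 and 10, a ratio of -0.79. MAGEC3 had no read in either library over a full window. The family's summed ratio was -0.89 (-1.57 to -0.18).

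SSX1 led the SSX genes, whose products repress transcription and are fused to SS18 in synovial sarcoma. SSX1 had 87 DMSO and 26 untreated reads in chrX:48252317-48258316, a ratio of -0.49. SSX3 had 14 DMSO and 6 untreated reads, SSX2 had 13 and 8, and SSX2B, whose promoter is identical to that of SSX2, had 10 and 4. SSX4, SSX4B, SSX5 and SSX7 had 1 to 4 DMSO and 1 or 2 untreated reads each. All 8 windows were free of shared bases and all were read in both libraries, and their sum of 132 DMSO and 50 untreated reads gave a ratio of -0.84 (-1.32 to -0.34).

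XAGE and PAGE reads came mainly from 1 window each. XAGE1A had 53 DMSO and 16 untreated reads, a ratio of -0.51. XAGE1B, which has an identical promoter, had 2 DMSO reads and no untreated read, and RefSeq places no XAGE1B start in its window. PAGE5 had 37 DMSO and 15 untreated reads, a ratio of -0.92, and PAGE1 had 15 and 1. PAGE4, a disordered protein of the prostate, had no read over a full window. PAGE2B, PAGE2 and PAGE3 had 5, 2 and 1 DMSO reads and no untreated read, XAGE3 had 2 and none, XAGE5 had no DMSO read and 1 untreated read, and XAGE2 had none. XAGE summed to a ratio of -0.49 (-1.29 to 0.38) and PAGE to -0.33 (-1.15 to 0.56).

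CT45A windows were read at like levels and had ratios below the median window. CT45A2 had 30 DMSO and 13 untreated reads, CT45A5 25 and 14, and CT45A7 21 and 13. CT45A3 had 17 and 6, CT45A6 16 and 10, CT45A9 16 and 13, and CT45A8 12 and 15. Over these 7 windows the ratio ran from -0.72 in CT45A3 to -2.49 in CT45A8. CT45A1 had 4 DMSO and 2 untreated reads, and CT45A10, with 118 unshared bases beside SAGE1, had none. The family summed to 141 DMSO and 86 untreated reads, a ratio of -1.52 (-1.92 to -1.12). RefSeq promoters were compared for CT45A1, CT45A7 and CT45A10 only and were 86.98% to 93.4% identical, and how far reads moved between copies was not tested.

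The CT47A array had more untreated than DMSO reads although the DMSO library was deeper. Its 12 windows summed to 9 DMSO and 18 untreated reads, a ratio of -3.24 (-4.58 to -2.01). CT47A7 had no DMSO read and 4 untreated reads, CT47A6 none and 2, and CT47A9 none and 1. CT47A12 had 3 DMSO and 2 untreated reads, CT47A2 had 1 and 3, CT47A4 and CT47A1 had 1 and 2, and CT47A5 and CT47A3 had 1 and 1. CT47A11 had 1 DMSO read alone, and CT47A10 and CT47A8 had no read. No window passed 4 reads in a library, so only the sum has a usable counting error. Each of the 12 shares bases with a neighbouring CT47A window, which leaves 3717 to 4860 unshared bases. None had a RefSeq promoter to compare, and how reads were placed among these copies was not tested.

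SPANX windows were read with DMSO alone. The 8 windows had 11 DMSO reads and no untreated read. SPANXB1 led with 4 DMSO reads, SPANXN5, SPANXN4 and SPANXN2 had 2 each and SPANXA1 had 1, while SPANXA2, SPANXN3 and SPANXN1 had none. The median window had 4.72 DMSO reads per untreated read, so these 11 reads correspond to fewer than the 3 untreated reads that a count of 0 allows. No difference was detectable at this depth, and no ratio is given.

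**Figure D4:**
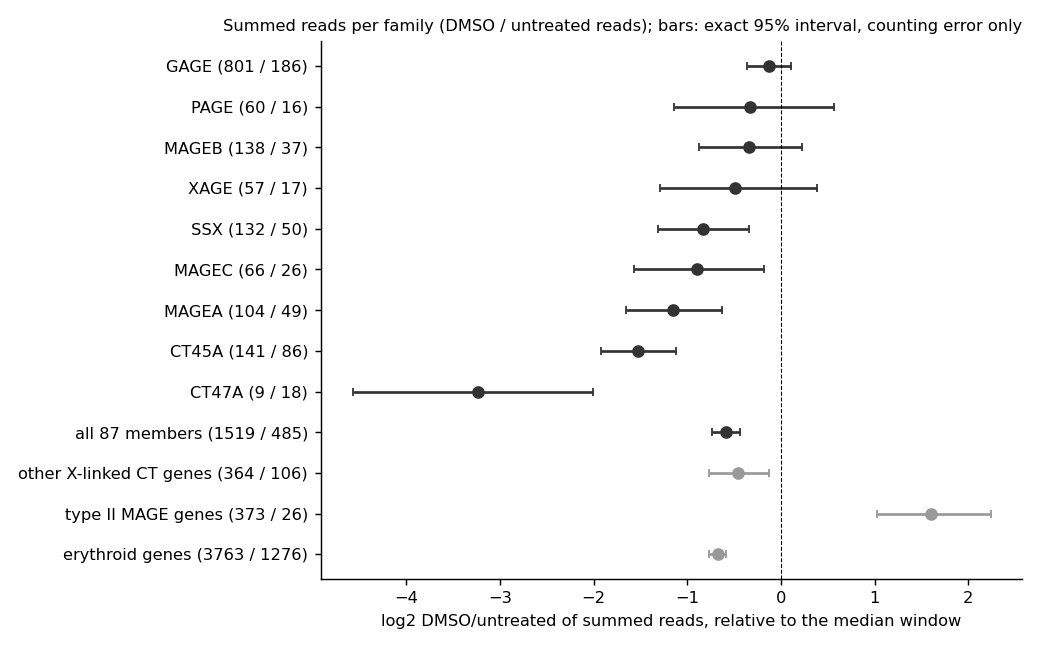
Log2 DMSO/untreated of summed reads relative to the median window (x axis) for 9 families, all 87 members, other X-linked cancer-testis genes, type II MAGE genes and erythroid genes, with exact 95% intervals for counting error only; the numbers in brackets are DMSO and untreated reads. The dashed line is the median window. Among the families CT47A lies lowest at -3.24 and GAGE is nearest the line at -0.13, and the type II MAGE genes lie above it at 1.60. SPANX, with no untreated read, has no ratio.

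Unshared bases set what could be measured in a window. Of the 87 windows, 55 shared no base with another window, and 7 of these (MAGEB18, MAGEB6B, PAGE4, XAGE2, MAGEC3, SPANXN3 and SPANXN1) had no read. Under 1000 unshared bases remained in 12 windows, and 7 of the 18 unread windows were among them. These 12 held 5 DMSO and 5 untreated reads in all. Of the 75 windows with at least 1000 unshared bases, 28 (37.3%) reached 1 CPM in both libraries. An identical promoter copy was found for 21 of the 64 members with a RefSeq promoter, and 4 windows did not hold their own RefSeq start (GAGE12B, GAGE12F, GAGE1 and XAGE1B).

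**Figure D5:**
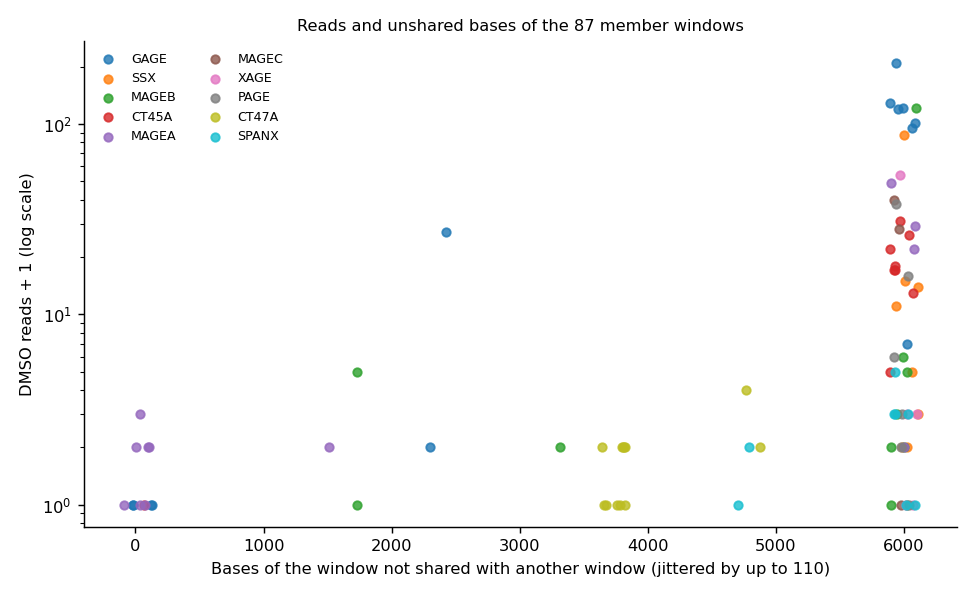
DMSO reads plus 1 (y axis, log scale) against the bases of each window not shared with another window (x axis, jittered) for the 87 members, coloured by family. All 8 members past the floor share no base, 7 MAGEA windows and 4 GAGE windows sit at the left with 2 or fewer DMSO reads, and the CT47A windows lie between 3717 and 4860 bases.

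The type II MAGE genes, relatives that most tissues express, stood above the median window as a sum, though none of the 12 passed the floor. Their 12 windows had 373 DMSO and 26 untreated reads, a ratio of 1.60 (1.03 to 2.24), against -0.59 (-0.74 to -0.44) for the 87 members; the 2 intervals, for counting error only, do not overlap. In 8 of the 12 no untreated read was present and all 8 were read with DMSO, while 29.5% of all windows, at any depth, were read with DMSO alone. That share was not computed for windows of like depth. Over the 11409 windows with 10 to 235 reads the ratio reached 3.81 at the 95th percentile, so high ratios also occurred elsewhere. MAGEE1 had 66 DMSO reads and no untreated read, and NDN, which encodes necdin, had 49 and none. The exact 95% lower limits of their log2 ratios were 1.88 and 1.44, with no upper limit. NSMCE3, a subunit of the SMC5/6 complex, had 86 DMSO and 12 untreated reads and a ratio of 0.59 (-0.27 to 1.61). MAGED2, with 41 and 10, and MAGED1, with 5 and 3, lay below the median window at -0.20 and -1.39. The lower limits for MAGEE1 and NDN, like the intervals, cover counting error only.

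Other X-linked cancer-testis genes had a summed ratio that overlapped that of the members. Of 36 listed, 35 had a window, 5 of these with under 1000 unshared bases. A level of 1 CPM in both libraries was reached by 7, against 28 of the 87 members and 34.7% of all windows. The sum of 364 DMSO and 106 untreated reads gave -0.46 (-0.77 to -0.13). RHOXF2, a homeobox gene, had 102 DMSO and 37 untreated reads, and RHOXF2B, its near-identical copy, 65 and 23. CT55 had 34 and 8, and CTAG2 34 and 3. Autosomal germline genes gave 888 DMSO and 200 untreated reads, a ratio of -0.09 (-0.31 to 0.14), with CTCFL, the germline paralogue of CTCF, at 278 and 51, and SYCP3 at 244 and 81. COX6B2, a testis form of a cytochrome oxidase subunit, had 163 and 25, and TEX15, needed for meiosis, had 79 and 15. PRAME had 19 unshared bases and no read.

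The genes listed as regulators of cancer-testis promoters hold silencing factors and factors that oppose silencing, such as the TET oxidases and CTCFL. Of 29, 18 reached 1 CPM in both libraries, against 34.7% of all windows, and the summed ratio was 0.64 (0.52 to 0.76). Under 1000 unshared bases remained in 6 of the 29: DNMT1, UHRF1, EHMT1, EHMT2, HDAC3 and CTCF. These could hardly be measured and had no read. EZH2, the Polycomb methyltransferase, had 1351 DMSO and 150 untreated reads, and TRIM28, a corepressor and MAGE-bound ligase, 787 and 63. Their ratios were 0.93 and 1.40, and the whole list held 4719 DMSO and 643 untreated reads. TET1, which oxidises 5-methylcytosine and so opposes silencing, had 362 and 64, and DNMT3B, a DNA methyltransferase, 346 and 59. The intervals of TET1 (-0.12 to 0.67) and DNMT3B (-0.09 to 0.74) include the median window.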

How the data were processed

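Nascent RNA was measured by PRO-seq in 2 K562 libraries, 1 with DMSO and 1 untreated. The submitters' processing notes name Bowtie2 2.3.5, featureCounts 2.0.1 and the build hg38; how reads that fit several copies were placed is not given in the sources used here. The deposited counts are raw reads per window, and the deposited TPM, made by the authors, equal CPM because all windows have 1 length. The authors' mean TPM was not used.

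Counts were scaled with TMM (edgeR 4.0.16, R 4.3.3), with DESeq2 1.42.0 size factors and library totals as alternatives, and log2 ratios used a prior of 0.5 reads. Counts have exact Poisson intervals, ratios and shares Clopper-Pearson ones, all at 95%, and without molecular identifiers these cover counting error only. The ratio code was tested on simulated data. With 1 library a group there is no p-value. The rule for the members uses symbols only, but the families and gene lists were chosen with earlier results of these data known. Named with values are members with at least 20 reads, the 2 highest of each family, those past the floor and the 4 highest of each list; others named, the printed promoters and the 2 words searched were chosen after their values were seen.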

Additional observations from a re-analysis of the deposited data

How the results depend on the processing

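No paired analysis was possible because each group had 1 library, and for the same reason no replicate could be left out. Of 98 alternative values 83 stayed within the limits set and 15 moved, none reversed, and all 57 ratio alternatives kept their sign. Scaling cancels when a ratio is taken relative to the median window. The alternatives with library totals and DESeq2 size factors therefore had to stay near the main values and are no check. They are counted in the 98 and in the 57. So are the MAGEB, CT45A, MAGEC, PAGE and CT47A ratios with identical copies left out, where no window was dropped and nothing could change. With a floor of 1 CPM and 20 reads, 8 of 25 members stood 2-fold or more lower and the median ratio was -0.68. With any read in either library, 13 of 69 stood higher and 38 lower, with a median of -1.19. A 1.5-fold threshold gave 1 higher and 2 lower. The shares of all windows were not computed at these floors or at this threshold. These counts therefore do not show whether the members differ from other windows, and low floors admit windows with few reads. At 3 or more reads, 36 of the 87 members were read with DMSO and 31 in untreated cells, and at 5 CPM, 17 held the level in both. Shares of all windows were not computed at 3 reads or 5 CPM either, so these counts cannot be compared with other windows. Leaving out identical copies changed the MAGEA ratio to -0.54 and the leading window's DMSO share to 20.4%. It put XAGE at -1.24 (-5.50 to 4.64), over 3 windows with few reads. All 12 CT47A and 9 CT45A windows were kept there, since few of their promoters could be compared. MAGEA1 and MAGEA10, with no promoter to compare, were kept too, and the MAGEA value rests mainly on MAGEA1. An alternative added after seeing the data left out the GAGE, CT45A and CT47A windows. Of the 53 members kept, 40 were read with DMSO, against 77.6% of all windows. In untreated cells 22 of the 53 were read, against 50.0%, and 13 reached 1 CPM in both libraries, against 34.7%. A floor of 20 CPM and 400 reads left no member, SPANX had no ratio, and CT47A had none among windows that share no base. Depth limits most members: 58 of 87 had under 10 reads in all.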

Other observations

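Genes for proteins that MAGE proteins bind had a summed ratio above the median window. The 7 windows summed to 1248 DMSO and 146 untreated reads, a ratio of 0.86 (0.61 to 1.12). Of the 7, 3 reached 1 CPM in both libraries, against 34.7% of all windows. Beside TRIM28, these were PRKAA1, the AMP-activated kinase subunit that the MAGEA3 and MAGEA6 complex targets, with 334 DMSO and 69 untreated reads, and TRIM27, a ligase, with 102 and 13. PJA1, a ligase bound by MAGED1, had 16 DMSO reads and no untreated read. The list rests mainly on TRIM28, which holds 787 of its DMSO reads and 63 of its untreated reads.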
